A study of Mus musculus with 18 samples.

Results

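The oligodendrocyte lineage genes described here were followed through RNA libraries of sorted brain endothelium, and are Mbp, Ermn, Mog, Mag, Cnp, Gpr17 and Ptgds. They are 7 of the 21638 genes in the deposited count table, and each was matched there by its symbol. The symbols were chosen by their levels and group differences in these same libraries, so the levels and differences of the 7 genes are a description and carry no test as support. Each level is given in all 18 libraries and also as a share of Cldn5 and Pecam1, a tight junction claudin and the adhesion molecule CD31, which mark the endothelial cells themselves. All 7 genes passed the filter on low counts (10 or more in 3 or more libraries), as did 17094 genes in all.

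Cortical cells of adult mice that carried CD31 but neither CD41 nor CD45 were collected by flow sorting, and ultra-low-input mRNA libraries were sequenced as read pairs. Sham and MCAO mice (middle cerebral artery occlusion, a stroke model), both labelled WT, gave ipsilateral and contralateral libraries, 3 of each kind. The other 2 groups were ipsilateral libraries of occluded mice labelled Hdac2 ECKO or Ezh2 ECKO, 3 each, with loxP-flanked alleles of the named gene and a tamoxifen-inducible Cre (CreERT2) under the endothelial Cdh5 promoter. Every sample, WT included, is labelled with tamoxifen at 75 mg per kg, which the design describes as 5 doses, and brains were taken on day 7. The strain, and whether each library came from a separate mouse, are not given in the sources used here, so the spread between libraries may be partly technical.

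Oligodendrocytes wrap axons in myelin, a stack of membrane that is compacted by Mbp, myelin basic protein. Their precursors pass through a short-lived stage marked by the receptor Gpr17 before the membrane proteins of mature myelin, such as Mog and Mag, appear. Ptgds, a prostaglandin D synthase, is made by oligodendrocytes and also by the leptomeninges and the choroid plexus, so it is not specific to oligodendrocytes. In bulk libraries, fewer cells of a type and less RNA per cell cannot be told apart.

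The stretches upstream of 3 of the genes are shown because their counts behaved most differently: Mog and Ermn were near 0 in most libraries, and Cnp was present in all 18. Each is the 250 bases before the RefSeq start on GRCm38.p6, written 5′ to 3′ on the strand of the gene, at chr17:37023399-37023648 (minus strand) for Mog, chr2:58052865-58053114 (minus strand) for Ermn and chr11:100574689-100574938 (plus strand) for Cnp. Capitals mark matches, on either strand, to ACAATG or ACAAAG (bound by SOX factors) and to CTGGCAC or CTGGTAC (bound by MYRF), and no 2 of the marked matches overlap.
Mog: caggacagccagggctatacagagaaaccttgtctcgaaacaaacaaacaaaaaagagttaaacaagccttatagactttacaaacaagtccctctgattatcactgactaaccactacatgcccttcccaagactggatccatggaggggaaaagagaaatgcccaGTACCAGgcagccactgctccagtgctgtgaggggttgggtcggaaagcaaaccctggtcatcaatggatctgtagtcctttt
Ermn: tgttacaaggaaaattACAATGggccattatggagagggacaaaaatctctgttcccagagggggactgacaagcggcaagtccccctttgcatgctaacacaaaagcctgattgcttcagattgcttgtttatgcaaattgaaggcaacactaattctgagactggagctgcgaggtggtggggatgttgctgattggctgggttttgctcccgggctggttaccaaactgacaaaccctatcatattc
Cnp: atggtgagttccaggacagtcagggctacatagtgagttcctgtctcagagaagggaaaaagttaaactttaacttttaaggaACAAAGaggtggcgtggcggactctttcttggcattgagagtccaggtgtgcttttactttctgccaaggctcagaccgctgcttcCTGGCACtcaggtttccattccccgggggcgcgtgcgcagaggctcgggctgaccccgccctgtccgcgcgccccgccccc
Cnp held both kinds of match and 13 CpG pairs, against a median of 6 over 32851 promoters of that length. Mog held 1 match to the MYRF letters, on the opposite strand, and 2 CpG pairs, and Ermn held 1 match to the SOX letters and 3 CpG pairs. Of all 32851 promoters, 25.2% held the SOX letters and 5.93% the MYRF letters. In the same window Mag (chr7:30914864-30915113) held 1 match to each, and Ptgds (chr2:25469750-25469999) held neither but had 2 matches to the E-box CAGCTG, which 13.0% of promoters held. A match describes these letters and is no evidence of binding.

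Compared per length, the 7 genes lay far below the endothelial genes. The median over 18 libraries was 812 CPM (counts per 1000000 of the scaled library total) per kb for Cldn5 and 55.7 for Pecam1. Cnp, an enzyme of the myelin sheath's inner loops, stood at 2.65 CPM per kb, Gpr17 at 0.547, Ptgds at 0.351 and Mbp at 0.181. Mog, Ermn and Mag stood at 0.0596, 0.0554 and 0.0280. As a yardstick, the 1466 olfactory and vomeronasal receptor genes, which endothelium is not known to use, were ranked by CPM per kb in each library. Cnp was above their percentile 95 in 17 of 18 libraries, Gpr17 in 13, Ptgds in 11 and Mbp in 10, while Mog passed it in 3, Ermn in 2 and Mag in 2. Mog, Ermn and Mag thus stayed within the range of most receptor genes in 15 or more of the 18 libraries.

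Totals ran from 25791401 to 57576255 counts per library, so 3 counts, the floor used here, were worth 0.0619 to 0.101 CPM (counting error only). Between 77.3% and 89.4% of counts from 1 to 20 were even, so a count of 2 may be 1 read pair. MCAO contralateral replicate 1 and Ezh2 ECKO replicate 2 stood apart, with 1529 and 1561 CPM on the receptor genes against 165 to 583 elsewhere, and with the 2 lowest median correlations to other libraries (0.745 and 0.758). All 15 endothelial list genes were tested, and their summed level ran from 13660 to 29424 CPM. Cldn5 alone ran from 260 to 2369 CPM. Against MCAO ipsilateral, its log2 fold change was −1.58 ± 0.56 under the Ezh2 ECKO label (SE; Pecam1 −0.69 ± 0.31). It was −0.86 ± 0.56 under the Hdac2 ECKO label, and 0.82 ± 0.56 in MCAO against sham ipsilateral. A share of Cldn5 and Pecam1, or a scaling to them, thus also moves with these 2 genes. Under the Hdac2 ECKO label, Hdac2 stood at 57.6, 85.0 and 87.9 CPM, overlapping with MCAO ipsilateral (84.4, 68.2 and 96.1; log2 fold change −0.11 ± 0.32, SE). Ezh2 stood at 12.0, 19.7 and 8.41 CPM under the Ezh2 ECKO label, above MCAO ipsilateral in all 3 (4.45, 7.02 and 7.85; 1.05 ± 0.86), so it was not lower under the label of its own deletion. The table gives 1 value per gene, so a transcript that lacks only the loxP-flanked part would still be counted. The groups are named by their labels throughout.

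Mbp (chr18:82475146-82585637, plus strand, GRCm38), whose protein holds myelin layers together, was counted in all 18 libraries. Its counts were 72, 66 and 98 in sham ipsilateral replicates 1 to 3, and 124, 64 and 188 in sham contralateral. In MCAO ipsilateral they were 14, 18 and 70, and in MCAO contralateral 17, 436 and 136. They were 14, 10 and 17 under the Hdac2 ECKO label and 2, 6 and 162 under the Ezh2 ECKO label. The 6 sham libraries lay between 1.49 and 4.51 CPM, whereas MCAO contralateral replicate 2 (9.50 CPM) and Ezh2 ECKO replicate 3 (4.53) stood far above the others of their group. Mean levels were 1.89 ± 0.633 CPM in sham ipsilateral and 3.28 ± 1.19 in sham contralateral (SD, n = 3 each). They were 0.797 ± 0.761 in MCAO ipsilateral, 4.31 ± 4.64 in MCAO contralateral, 0.421 ± 0.106 in Hdac2 ECKO and 1.58 ± 2.55 in Ezh2 ECKO. All neighbouring groups overlapped when ordered by the share of Cldn5 and Pecam1, from 22.0 per 10000 in sham contralateral to 3.61 in Hdac2 ECKO.

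Mog, a surface protein of the outermost myelin layer (chr17:37010743-37023398, minus strand), had 65.1% of all its counts in 1 library. MCAO contralateral replicate 2 held 220 counts and replicates 1 and 3 held 8 and 0. The sham contralateral libraries held 54, 1 and 20, and the sham ipsilateral libraries 0, 5 and 2. MCAO ipsilateral libraries had 4, 0 and 6 counts, those labelled Hdac2 ECKO 0, 0 and 6, and those labelled Ezh2 ECKO 0, 8 and 4. The gene was thus at 0 in 6 of 18 libraries, and all neighbouring groups overlapped in the order of shares. Without MCAO contralateral replicate 2, Mog no longer passed the filter.

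Ermn, the cytoskeletal protein ermin of late oligodendrocytes (chr2:58045113-58052864, minus strand), was at 0 in each MCAO ipsilateral library. Its counts were 4, 64 and 20 in sham ipsilateral and 8, 4 and 2 in sham contralateral. MCAO contralateral libraries had 19, 134 and 2, those labelled Hdac2 ECKO 6, 8 and 19, and those labelled Ezh2 ECKO 2, 38 and 8. The 0 counts were the lowest of the series, and the other groups overlapped one another. With the MCAO ipsilateral group set at 3 counts over the group, Ermn was at least 30.1-fold higher in sham ipsilateral, 54.4-fold higher in MCAO contralateral, 14.8-fold higher under the Hdac2 ECKO label and 19.4-fold higher under the Ezh2 ECKO label. These 4 bounds take in counting error only, not the spread between libraries, and would be lower if a count of 2 is 1 read pair. They share the same 3 libraries, and most of the counts behind each came from 1 other library. Sham ipsilateral replicate 2 held 64 of the 88 counts of its group, MCAO contralateral replicate 2 held 134 of 155, Hdac2 ECKO replicate 3 held 19 of 33 and Ezh2 ECKO replicate 2 held 38 of 48. Without these libraries the bounds were 12.2-fold, 11.7-fold, 9.63-fold and 5.99-fold. Ermn also shares 237 exon bases (6.52% of its exons) with Galnt5 on the opposite strand, and whether the counting used strand is not stated, so reads there cannot be told apart.

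Mag, an adhesion molecule of the innermost myelin membrane (chr7:30899176-30914873, minus strand), had the lowest counts of the 7. MCAO contralateral libraries held 58, 30 and 8 counts, and sham contralateral libraries 6, 2 and 6. Sham ipsilateral libraries held 2, 4 and 19, MCAO ipsilateral libraries 4, 1 and 2, and those labelled Hdac2 ECKO 3, 4 and 2. The libraries labelled Ezh2 ECKO held 4, 7 and 13. Apart from 3 libraries (MCAO contralateral replicates 1 and 2 and sham ipsilateral replicate 3), no count exceeded 13, and differences between such counts were not detectable at this depth. The highest library, MCAO contralateral replicate 1, is the one with the second highest receptor level, and 93.6% of the receptor genes were below Mag there. In MCAO contralateral replicate 2, where the receptor sum was 218 CPM, 99.0% were below it. The part of this background in the Mag counts was not tested further.

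Cnp (chr11:100574904-100591729, plus strand), a phosphodiesterase of non-compact myelin, had its highest group means in the 2 MCAO groups labelled WT. Its counts were 983, 1010 and 459 in MCAO ipsilateral replicates 1 to 3 and 465, 379 and 321 in sham ipsilateral (18.6 ± 6.56 and 9.07 ± 0.501 CPM, SD, n = 3). The MCAO contralateral libraries held 144, 1190 and 978 counts and the sham contralateral libraries 379, 185 and 427 (17.1 ± 11.2 and 8.72 ± 2.18 CPM). Under the Hdac2 ECKO label it had 223, 344 and 327 counts and under the Ezh2 ECKO label 246, 11 and 387 (9.11 ± 1.55 and 5.92 ± 5.29 CPM). MCAO ipsilateral lay above sham ipsilateral without overlap on the CPM scale, and the 2 lowest levels came from the 2 libraries with the highest receptor level. As a share of Cldn5 and Pecam1, Cnp ranged only from 58.9 ± 5.86 per 10000 in sham contralateral to 99.8 ± 8.64 in MCAO contralateral, which did not overlap, while MCAO ipsilateral (89.6 ± 31.4) and sham ipsilateral (80.1 ± 42.8) did. Cnp shares 154 exon bases (4.23% of its exons) with Dnajc7 on the opposite strand, a gene at 88.7 ± 22.8 CPM in MCAO ipsilateral and 43.9 ± 8.75 in sham ipsilateral.

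Ptgds (chr2:25466709-25470046, minus strand) had 77.2% of all its counts in MCAO contralateral replicate 2. That library held 6832 counts (149 CPM), and replicates 1 and 3 held 336 and 734. Sham ipsilateral libraries had 60, 94 and 120 counts, and sham contralateral libraries 0, 92 and 506. MCAO ipsilateral libraries had 32, 0 and 14, those labelled Hdac2 ECKO 4, 0 and 4, and those labelled Ezh2 ECKO 0, 15 and 2. All 3 MCAO contralateral libraries lay above all 9 ipsilateral MCAO libraries of the 3 genotypes, and sham contralateral overlapped with both. The choroid plexus list (7 genes) also summed to its highest level, 455 CPM, in MCAO contralateral replicate 2, of which transthyretin (Ttr) made 445, with 3 of the 7 at 0. In MCAO contralateral replicate 3, where Ptgds was second highest at 15.7 CPM, that list summed to 0.471 CPM with 4 of 7 at 0. The leptomeningeal list (10 genes) ran from 1.37 to 9.70 CPM in MCAO contralateral and from 8.53 to 13.7 in MCAO ipsilateral, where Ptgds was low. The part of these cells in the Ptgds counts was not tested further.

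**Figure D1:**
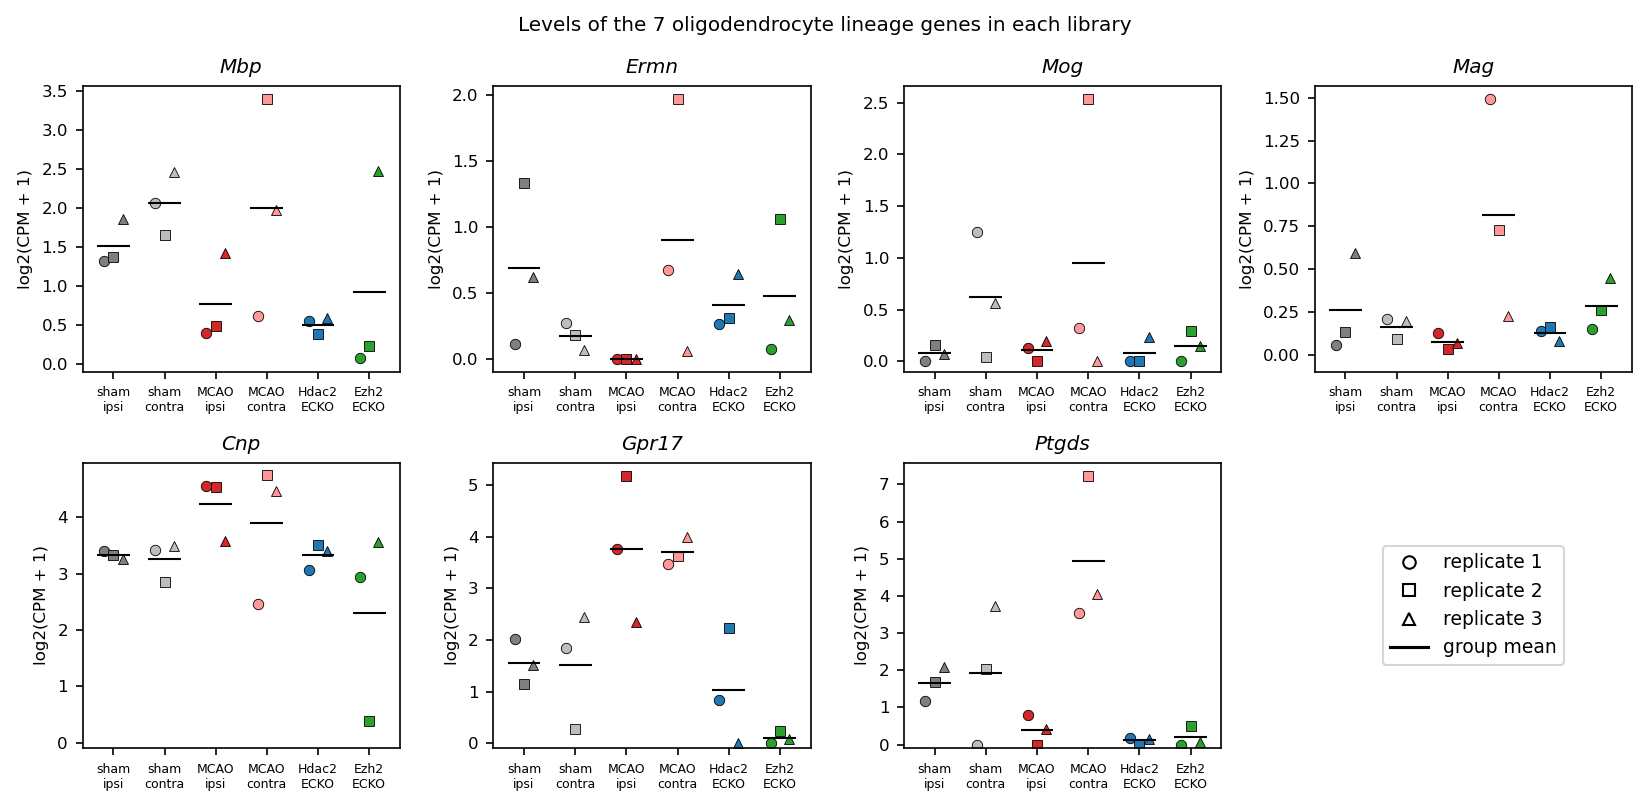
Level of each of the 7 genes as log2(CPM + 1) in each of the 18 libraries, by group, with symbols for the replicate number and a bar at the mean of the 3 log2 values. A single MCAO contralateral library (replicate 2, square) is the highest point for Mbp, Ermn, Mog, Cnp and Ptgds, and Ermn is at 0 in all 3 MCAO ipsilateral libraries.

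Gpr17 (chr18:31942997-31949636, minus strand), the receptor of the committed precursor stage, was the member with the clearest separation of groups. It stood at 12.5, 35.3 and 4.11 CPM in MCAO ipsilateral replicates 1 to 3 and at 10.1, 11.3 and 14.8 in MCAO contralateral. Sham ipsilateral libraries gave 3.07, 1.22 and 1.85 CPM and sham contralateral libraries 2.61, 0.202 and 4.47. The libraries labelled Hdac2 ECKO gave 0.793, 3.67 and 0, and those labelled Ezh2 ECKO 0, 0.171 and 0.0559. In counts, the last group held 0, 6 and 2, against 549, 1598 and 172 in MCAO ipsilateral. Both MCAO groups thus lay above the sham group of the same side, and both deletion labels lay below MCAO ipsilateral, without overlap. As a share of Cldn5 and Pecam1 the order was MCAO contralateral (110 ± 91.3 per 10000), MCAO ipsilateral (73.0 ± 50.4), sham ipsilateral (15.6 ± 2.58), sham contralateral (14.3 ± 12.3), Hdac2 ECKO (10.7 ± 14.3) and Ezh2 ECKO (1.26 ± 1.64). Among neighbours in that order, the second and the third place alone did not overlap. On this scale Hdac2 ECKO (0 to 27.0) reached into MCAO ipsilateral (24.3 to 125). MCAO contralateral ran from 48.0 to 215, highest in replicate 1, the library with the lowest Cldn5 of all (260 CPM). Without replicate 1 the mean share of that group lay below that of MCAO ipsilateral.

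The Gpr17 gene lies within Lims2 (chr18:31922290-31958619, plus strand), which encodes a focal adhesion protein, and 188 of its exon bases (3.62%) are also Lims2 exon. Lims2 stood at 143, 288 and 71.5 CPM in MCAO ipsilateral and at 93.2, 126 and 117 in MCAO contralateral. It stood at 85.2, 49.1 and 55.3 CPM in sham ipsilateral and 54.0, 33.0 and 83.0 in sham contralateral, and at 33.3, 44.9 and 39.7 under the Hdac2 ECKO label and 30.3, 22.5 and 38.9 under the Ezh2 ECKO label. The 5 libraries highest in Lims2 were thus also the 5 highest in Gpr17. On log2(CPM + 1) values over the 18 libraries, which share their depth and group with both genes, Pearson r was 0.945 and Spearman rho 0.918, given as a description. Without MCAO ipsilateral replicates 1 and 2, the farthest in Lims2, r was 0.916, and with group means removed it was 0.820. The labels give no batch. Among 11729 genes that averaged 1 CPM or more, Lims2 ranked 5 by rho with Gpr17.

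The 2 genes were not in a fixed ratio. Gpr17 counts per 100 Lims2 counts were 5.76 to 12.2 in MCAO ipsilateral, 8.99 to 12.7 in MCAO contralateral, 2.48 to 3.61 in sham ipsilateral and 0.611 to 5.38 in sham contralateral. They were 0 to 8.18 under the Hdac2 ECKO label and 0 to 0.758 under the Ezh2 ECKO label. Lims2 itself was called lower in Ezh2 ECKO than in MCAO ipsilateral, with a log2 fold change of −2.45 ± 0.45 (SE; edgeR's quasi-likelihood test, adjusted p = 0.0208), and was picked for its position. In the other 6 comparisons its adjusted p was 0.160 or more. Whether the counting used strand is not stated. Lims2 reads within the Gpr17 exons, intronic ones included, may thus be among the Gpr17 counts. Olig1, Olig2, Sox10 and Nkx2-2, transcription factors of the lineage, were hardly counted. They had 29, 61, 41 and 24 counts over all 18 libraries together and did not pass the filter, and none exceeded 0.432 CPM in any library.

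For the other pairs, Cnp and Dnajc7 had r 0.590 and rho 0.777 over the same 18 libraries. Without MCAO contralateral replicate 1 and MCAO ipsilateral replicate 1, r was 0.550, and Dnajc7 ranked 308 by rho among 11729 genes. Cnp had as high a rho with the total count of the library (0.787) and with the endothelial list sum (0.775). Ermn and Galnt5 were both near 0 in most libraries (Galnt5 had at most 1.02 CPM), and no relation is given for them.

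**Figure D2:**
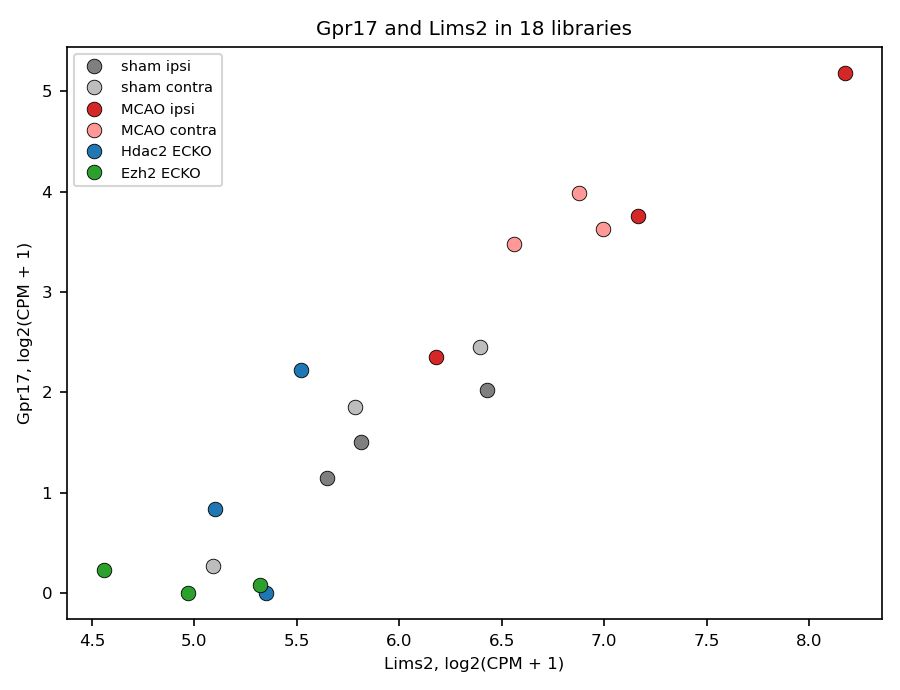
Gpr17 against Lims2, the gene that encloses it on the opposite strand, as log2(CPM + 1) in 18 libraries coloured by group. MCAO ipsilateral replicate 2 is the highest in both genes, MCAO ipsilateral replicate 3 (4.11 and 71.5 CPM) lies among the sham libraries, and the 3 labelled Ezh2 ECKO lie at the lower left.

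In MCAO ipsilateral against sham ipsilateral, which sets occlusion against no occlusion on one side, 3 of the 7 genes had a log2 fold change above 0 and 4 below (54.1% of all genes were below). Gpr17 had a fitted log2 fold change of 3.08 ± 1.27 (SE) and Cnp of 1.03 ± 0.78 (0.16 with the libraries scaled to Cldn5 and Pecam1), and Ptgds of −2.64 ± 1.47. Mbp had −1.25, which was −2.35 without MCAO ipsilateral replicate 3, and Mag had −1.93, which was −0.33 without sham ipsilateral replicate 3. Cnp and Gpr17 did not overlap upwards (13.3% of all tested genes did not) and Ermn and Ptgds did not overlap downwards (14.4%). Of the 7, 0 were called at an adjusted p under 0.05 in edgeR's quasi-likelihood test, as were 0% of all genes. At an unadjusted p under 0.05 stood 2 of 7 (Ermn and Gpr17; 7.08% of all genes). DESeq2 called 1, Ermn, against 0.531% of the genes to which it gave an adjusted p, and gave none to Mag. By share of Cldn5 and Pecam1, 5 of 7 had a lower mean. The members were chosen with this contrast known, so nothing is read from these counts.

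In MCAO ipsilateral against MCAO contralateral, 5 of the 7 genes were below 0 (53.7% of all genes). Ptgds had a log2 fold change of −7.35 ± 1.79 (SE), Mag of −3.96 ± 1.46 and Mbp of −2.43 ± 1.28. Ermn, Mag and Ptgds did not overlap downwards (1.88% of all genes) and 0 of 7 upwards (3.49%). The test called 0 of 7 (0% of all genes), with 3 at an unadjusted p under 0.05 (3.08%), and DESeq2 called 1, Ermn (0.0353% of its genes). All 7 had a lower mean share of Cldn5 and Pecam1 (6 to 7 when 1 library was left out). Without MCAO contralateral replicate 2 the Ptgds value was −5.21 and that of Mbp −1.17, and Mog could not be fitted. Without MCAO contralateral replicate 1 that of Mag was −2.89.

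In MCAO contralateral against sham contralateral, the remote side, the fitted values of all 7 were above 0, as were those of 10134 of 17094 genes (40.7% were below 0). They ran from 0.40 ± 1.21 for Mbp to 3.52 ± 1.48 for Ptgds (SE). On CPM, Mag and Gpr17 did not overlap upwards (3.65% of all genes) and 0 of 7 did not overlap downwards (6%). For Mag this rested on a lowest count of 8 against a highest of 6 (0.171 and 0.153 CPM). By share of Cldn5 and Pecam1 the groups overlapped in Mag (0.768 and 0.861 per 10000). The test called 0 of 7 (0% of all genes), with 1 at an unadjusted p under 0.05, Ptgds (4.41% of all genes), and DESeq2 called 0 (0.159%). Without MCAO contralateral replicate 2, the value was −0.92 for Mbp, 1.23 for Ermn and 1.34 for Ptgds, whereas it was 2.34 for Gpr17. Without MCAO contralateral replicate 1, that of Mag was 1.75 in place of 2.82. In sham ipsilateral against sham contralateral, the side difference without occlusion, 3 were above 0 and 4 below (45.2% of all genes). The values ran from −3.40 ± 2.07 for Mog to 2.44 ± 1.56 for Ermn (1.24 without sham ipsilateral replicate 2). Mog could not be fitted without sham contralateral replicate 1 or 3. There 0 of the 7 were free of overlap (8.44% of all genes upwards and 6.98% downwards). The edgeR test called 0 of 7 (0% of all genes), 0 had an unadjusted p under 0.05 (1.85%), and DESeq2 called 0 (0.0353%).

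**Figure D3:**
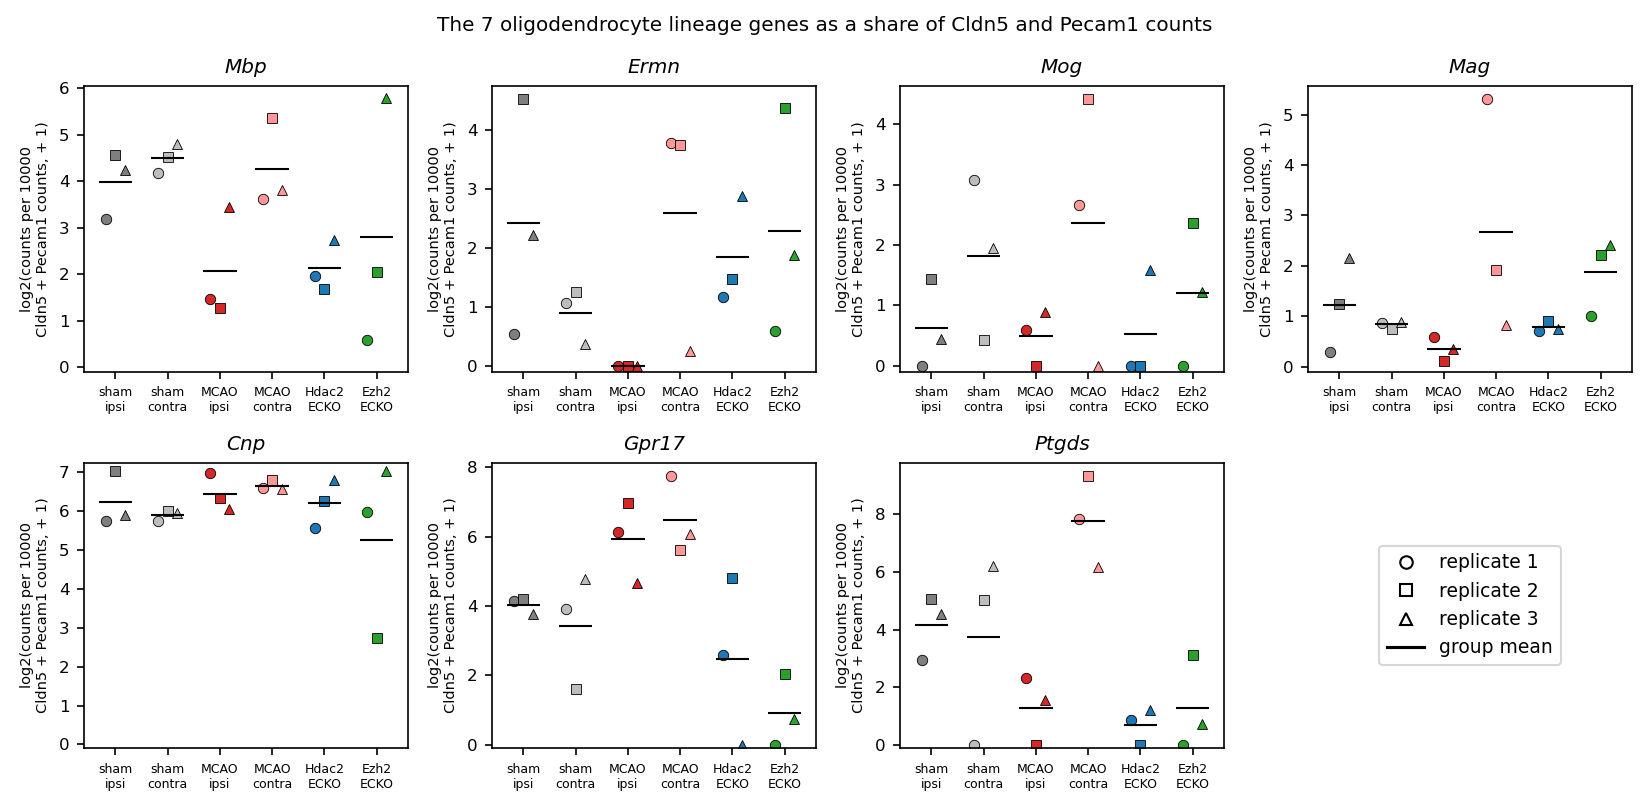
Counts of each of the 7 genes per 10000 counts of Cldn5 and Pecam1 together, as log2(value + 1), in each library by group, with symbols for the replicate number and a bar at the mean of the 3 log2 values. Gpr17 keeps the MCAO groups highest on this scale, with MCAO ipsilateral at 24.3 to 125 per 10000 and sham ipsilateral at 12.6 to 17.4, while for Cnp those 2 groups overlap.

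Under the Hdac2 ECKO label against MCAO ipsilateral, 2 of the 7 genes were above 0 and 5 below (45.2% of all genes). Gpr17 had a log2 fold change of −3.54 ± 1.30 (SE), Ptgds of −2.06 ± 1.64 and Cnp of −1.03 ± 0.78 (−0.21 with the libraries scaled to Cldn5 and Pecam1). On CPM, Ermn did not overlap upwards (9.54% of all genes), and Cnp and Gpr17 did not overlap downwards (10.3%). By share of Cldn5 and Pecam1 both Cnp and Gpr17 overlapped, Cnp at 46.5 to 110 per 10000 against 64.8 to 125 in MCAO ipsilateral. The test called 0 of 7 (0.0117% of all genes), with 2 at an unadjusted p under 0.05 (9.85%), and DESeq2 called 1, Ermn (1.66% of its genes). Mbp, Mog and Mag overlapped between the groups, with log2 values of −0.91 ± 1.24, −0.37 ± 1.98 and 0.75 ± 1.35. Without MCAO ipsilateral replicate 3 that of Mbp was 0.17, and without Hdac2 ECKO replicate 3 that of Mog was −4.67. The 4 red cell genes had a median log2 fold change of 1.95 here, all 4 at an unadjusted p under 0.05 and 0 called, and their part in the member values was not tested.

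Under the Ezh2 ECKO label against MCAO ipsilateral, Gpr17 was the 1 member of 7 that was called, against 1.46% of all genes (1.23% called lower and 0.228% higher). Of the 7, 3 were below 0 (44.6% of all genes), and 3 had an unadjusted p under 0.05 (19.2%). Its log2 fold change was −7.79 ± 1.62 (SE, adjusted p = 0.0291, edgeR's quasi-likelihood test), and it was chosen with this value known. The call was lost with the libraries scaled to Cldn5 and Pecam1 (−5.97, adjusted p = 0.0910) and with a replicate block (−7.73, adjusted p = 0.0558). Leaving out any 1 of 5 of the 6 libraries also lost it. Without MCAO ipsilateral replicates 1 or 2 the adjusted p was 0.0784 and 0.171, and without Ezh2 ECKO replicates 1, 2 or 3 it was 0.0538, 0.0689 and 0.112, with fold changes from −9.15 to −6.73. It was kept without MCAO ipsilateral replicate 3 (0.0198). On CPM, Ermn and Mag did not overlap upwards (13.6% of all genes), and Cnp and Gpr17 did not overlap downwards (15.3%). The nearest Mag libraries of the 2 groups both held 4 counts (0.108 and 0.0912 CPM). By share of Cldn5 and Pecam1, Cnp overlapped, at 5.72 to 130 per 10000 against 64.8 to 125 in MCAO ipsilateral. By the floor of 3 counts (counting error only), Ermn was at least 19.4-fold higher. The bound was 5.99-fold without Ezh2 ECKO replicate 2, 1 of the 2 libraries with the highest receptor level. Mag and Mbp had log2 values of 1.99 ± 1.36 and 0.99 ± 1.23, and Cnp of −1.65 ± 0.79 (−0.44 with the libraries scaled to Cldn5 and Pecam1). Mbp rested on Ezh2 ECKO replicate 3, without which its value was −2.80. DESeq2 called 2 of 7, Gpr17 and Ermn, against 10.3% of its genes. The globins moved in the same libraries: the 4 red cell genes summed to 69.9 to 670 CPM under the Ezh2 ECKO label and to 38260 to 65417 in MCAO ipsilateral, all 4 called lower, and their part in the member values was not tested.

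Directly compared, the libraries labelled Hdac2 ECKO had more Gpr17 than those labelled Ezh2 ECKO (log2 fold change 4.25 ± 1.42, SE), with overlapping values, and without Hdac2 ECKO replicate 2 the value was 2.29. The 4 red cell genes were called higher there, with a median log2 fold change of 9.44, and their part was not tested. Of the 7, 5 were below 0 (55.6% of all genes), and 0 were free of overlap (6.87% of all genes upwards and 5.26% downwards). The test called 0 of 7 (0.123% of all genes, of which 0.117% upwards and 0.00585% downwards). An unadjusted p under 0.05 was reached by 1 (11.2% of all genes). DESeq2 called 1, Gpr17, against 4.72% of its genes, and gave Mag no adjusted p. Each comparison above shares libraries with others, so the values for a gene are not all independent of each other.

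**Figure D4:**
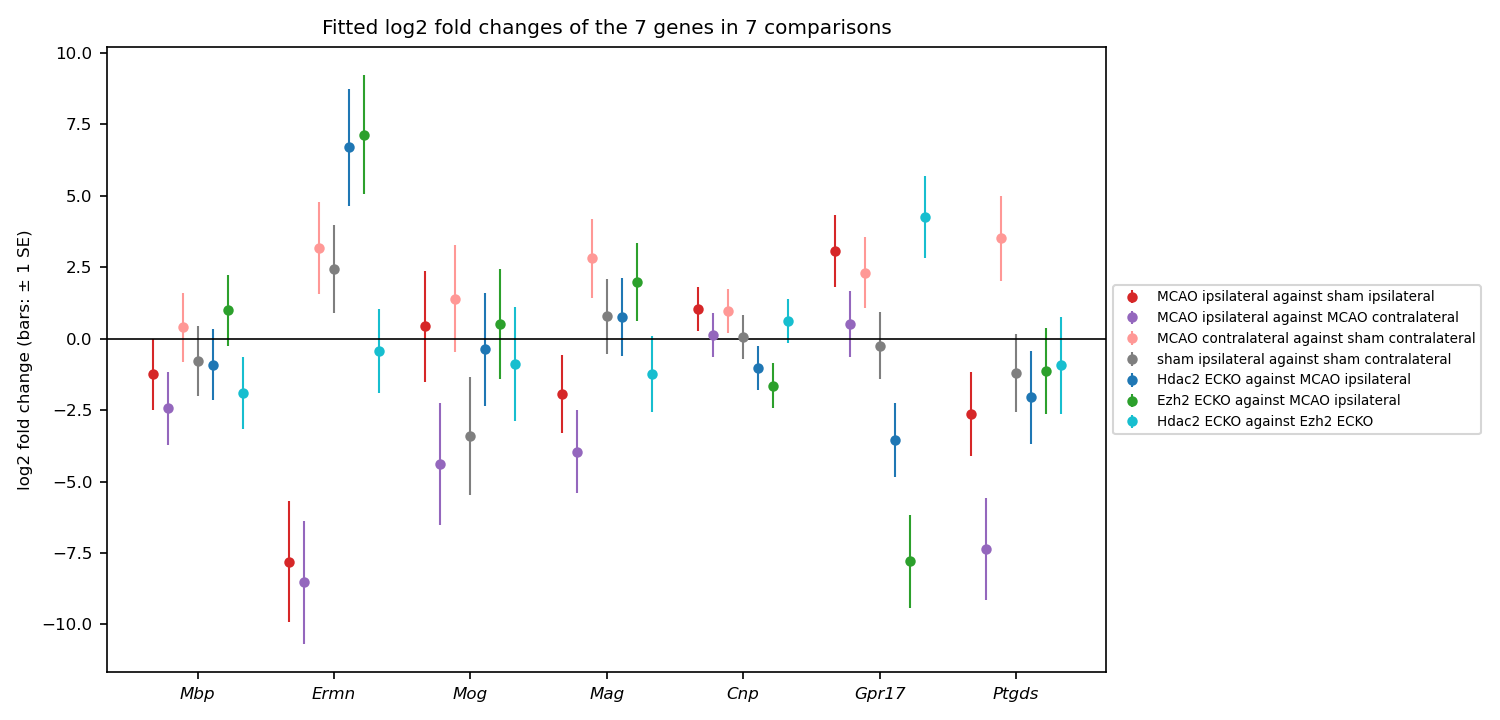
Fitted log2 fold changes of the 7 genes in 7 comparisons from the edgeR fit over 18 libraries, with bars of 1 SE. Gpr17 in Ezh2 ECKO against MCAO ipsilateral lies at −7.79, and the 4 values of Ermn furthest from 0 all set a group against the MCAO ipsilateral libraries, where it had no counts.

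The 3 other lists of oligodendrocyte genes were followed in the same fit, 50 genes in all, of which 49 were in the table and 38 were tested. The called genes were 1 of 38 under the Ezh2 ECKO label against MCAO ipsilateral (1.46% of all genes) and 0 of 38 in each of the other 6 comparisons (at most 0.123%). At an unadjusted p under 0.05, 4 were higher and 1 lower in MCAO ipsilateral against sham ipsilateral (7.08% of all genes), and 1 and 4 against MCAO contralateral (3.08%). In MCAO against sham contralateral they were 1 and 0 (4.41%), and between the sham sides 0 and 1 (1.85%). Against MCAO ipsilateral, those labelled Hdac2 ECKO had 2 higher and 7 lower (9.85%) and those labelled Ezh2 ECKO 1 and 8 (19.2%), and 1 and 2 between the deletion labels (11.2%). The called gene was Apod, apolipoprotein D, a lipid carrier on the mature list. Apod averaged 344 CPM over the 18 libraries, against 333 for Pecam1, and which cells its counts came from was not tested. It stood at 623, 1045 and 782 CPM in MCAO ipsilateral and at 293, 29.2 and 48.9 under the Ezh2 ECKO label, with a log2 fold change of −2.72 ± 0.65 (SE; edgeR's quasi-likelihood test, adjusted p = 0.0424). Ezh2 ECKO replicate 1 was the high library of that group, and 0 of 38 were called without MCAO ipsilateral replicate 1 or 2 or without Ezh2 ECKO replicate 2 or 3. DESeq2 called 3 list genes there (10.3% of its genes), 3 in MCAO ipsilateral against sham ipsilateral (0.531%), 1 in Hdac2 ECKO against Ezh2 ECKO (4.72%) and 0 in the other 4.

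The mature myelin list was led by Mal, Apod and Car2. Mal, a membrane raft protein, averaged 507 CPM over the 18 libraries, Apod 344 and Car2, carbonic anhydrase, 142. Mal was at least 311 CPM and Car2 at least 97.9 CPM in every library, including those where Mog was at 0, whereas Apod ran from 29.2 to 1045. The newly formed list was likewise led by Tcf7l2, Rras2 and Itpr2 at 43.9, 43.3 and 37.5 CPM, and its sum stayed between 146 and 216 CPM in all libraries. The precursor list was low, with Pdgfra at 3.08, Sox6 at 1.64 and Cspg4 at 0.989 CPM, and summed to 1.18 to 15.9 CPM. Pdgfra, the growth factor receptor of the precursors, was highest in Hdac2 ECKO replicate 1 (14.6 CPM) and Ezh2 ECKO replicate 3 (11.7), neither of which was high in Gpr17.

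In MCAO ipsilateral against MCAO contralateral, 18 of 25 tested mature genes were lower, with a median log2 fold change of −1.20 against −0.05 over all genes, and 53.7% of all genes were lower. Opalin, a late oligodendrocyte membrane protein, had −5.06 ± 2.03 (SE), with an unadjusted p of 0.0209 and an adjusted p of 1 in edgeR's quasi-likelihood test. Of its 1100 counts, 906 were in MCAO contralateral replicate 2, and the other two libraries of that group stood at 0.628 and 0.428 CPM against 0 to 0.574 in MCAO ipsilateral. In MCAO contralateral against sham contralateral, 20 of 25 were higher (median 0.65 against 0.17). In sham ipsilateral against sham contralateral, 21 of 25 were lower (median −0.71 against 0.07). In MCAO ipsilateral against sham ipsilateral, 14 of 25 were higher (median 0.22 against −0.09), with Mal at 1.15 ± 0.34 and Myrf, the master regulator of myelin genes, at 2.03 ± 0.76, adjusted p of 0.509 and 0.630. Whether the effect of the occlusion differed between the sides was tested as an interaction in edgeR, added after values were seen. It called 0 of 17094 genes (578 at an unadjusted p under 0.05) and 0 of the 38 list genes (3 unadjusted, smallest adjusted p = 0.941). The fit took the libraries of both sides as independent, though they may share mice.

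Under the Hdac2 ECKO label, 19 of 25 mature genes were lower than in MCAO ipsilateral (median −0.56 against 0.11 over all genes). Pllp, plasmolipin of the myelin membrane, had −1.65 ± 0.67 and Mal −1.08 ± 0.34, with adjusted p of 0.442 and 0.394. Under the Ezh2 ECKO label 15 of 25 were lower (median −0.36 against 0.17), with Pllp at −2.01 ± 0.68 and Myrf at −1.60 ± 0.75, adjusted p of 0.119 and 0.250. Between the labels, 14 of 25 were lower in Hdac2 ECKO (median −0.27 against −0.15). Bcas1, a marker of newly formed oligodendrocytes, had −5.48 ± 1.80 there (adjusted p = 0.248), and 286 of its 484 counts came from Ezh2 ECKO replicate 3, the library that was also high in Mbp. Over all 3 lists together the medians were −0.13, −0.69, 0.37, −0.44, −0.50, −0.12 and −0.12 in the 7 comparisons in the order given above.

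MCAO contralateral replicate 2 held the highest level of 15 of the 49 list genes, against 4.58% of all tested genes, and of 5 of the 7 members. Opalin stood at 19.7 CPM there and at no more than 1.78 elsewhere. Mobp, a protein of compact myelin, had 920 of its 1996 counts there. In MCAO contralateral replicate 1, which held the highest level of 18.8% of all tested genes, 7 list genes and Mag were highest. By the summed mature list, MCAO ipsilateral replicate 2 was the highest library (2639 CPM) and MCAO contralateral replicate 2 came next (1938). MCAO contralateral replicate 2 was also highest in the neuron list, 291 CPM over 9 genes with 1 at 0 (Stmn2 at 268 CPM), against 185 and 262 CPM in the other MCAO contralateral libraries and 51.2 to 79.4 under the Ezh2 ECKO label. Its astrocyte list sum was 55.8 CPM, against 50.9 and 38.7 in its group, and its precursor list sum, 1.18 CPM, was the lowest of the 18.

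**Figure D5:**
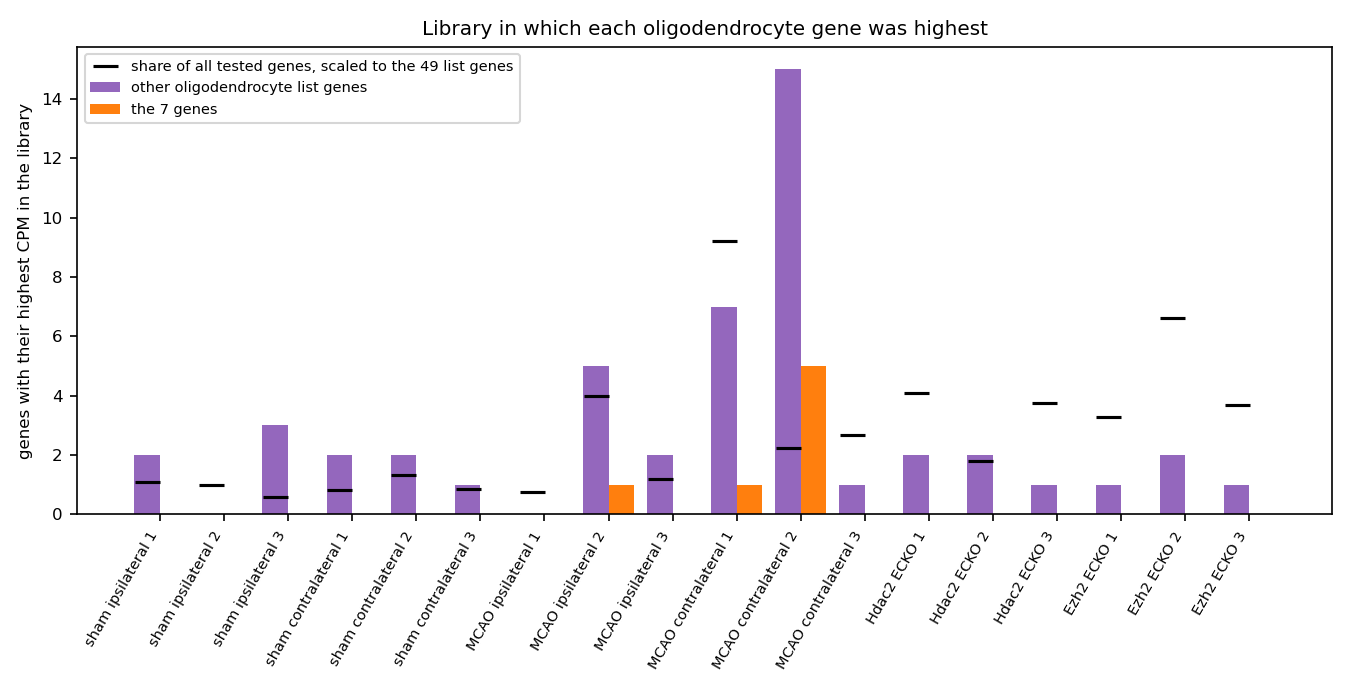
For each of the 18 libraries, the number of the 49 other oligodendrocyte list genes (purple bars) and of the 7 members (orange bars) that had their highest CPM in it, with a dash at the share of all 17094 tested genes scaled to 49. MCAO contralateral replicate 2 holds 15 and 5, above its dash, and MCAO contralateral replicate 1 holds 7 and 1.

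The lists of other cell types were uneven across libraries. The red cell list summed to 69.9 to 297842 CPM, with means of 199490 under the Hdac2 ECKO label and 103758 in sham contralateral, and exceeded the endothelial list sum in the 15 libraries without the Ezh2 ECKO label. The summed microglia list, which includes Csf1r and Ctss, ran from 88.4 to 98.4 CPM in MCAO ipsilateral and from 34.7 to 44.2 in sham ipsilateral. Most of each sum came from 1 other gene of that list. Csf1r averaged 6.63 and 3.63 CPM in these groups and Ctss 5.65 and 0.321. The mural list, led by Rgs5, Tagln and Acta2, ran from 38.8 to 104 CPM in MCAO ipsilateral and from 106 to 162 in sham ipsilateral. The astrocyte list, led by Gja1, Slc1a3 and Slc1a2, ran from 33.5 to 96.6 CPM over all libraries, and the leukocyte and platelet list, led by Itga2b, Lyz2 and Ptprc, from 10.3 to 57.5. Itga2b and Ptprc encode CD41 and CD45, the markers by which cells were removed in the sort. The neuron list was led by Stmn2, Nrgn and Gad1, the choroid plexus list by Ttr, Kl and Kcnj13, the fibroblast list by Col3a1, Col1a2 and Igf2, and the endothelial list by Ly6c1, Slco1a4 and Flt1. Over the 7 comparisons, the genes of these lists that were called were Ly6c1, lower under the Ezh2 ECKO label than in MCAO ipsilateral, and the 4 red cell genes in both comparisons with that label. The part of these cells in the member values was not tested.

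Among themselves the 7 genes did not move as 1 group. Over the 18 libraries, which share their depth and background with every gene, Spearman rho of log2(CPM + 1) was 0.632 between Cnp and Gpr17, 0.559 between Ermn and Mag, 0.509 between Mbp and Ptgds, 0.462 between Ermn and Mog and 0.459 between Mbp and Mog. Between Ermn and Cnp it was −0.39 and between Ermn and Gpr17 −0.38. Cnp followed the total count of the library (rho 0.787) and the endothelial list sum (0.775), as did Gpr17 (0.645 and 0.764), and Ermn followed the receptor level (0.638). The mature list sum went with Gpr17 (0.708) and Cnp (0.647) but hardly with Mog (0.0252) or Mag (−0.038), and against Ermn (−0.57).

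The genes most like each member, by rho over 18 libraries among 11726 genes that averaged 1 CPM or more, were mostly not myelin genes. For Gpr17 they were Psmg3 (0.952), Gm26938 (0.931) and Bcl2l1 (0.924), and for Cnp Sdf2 (0.924), Creld2 (0.917) and Trim17 (0.913). Mbp was most like Arrdc4 (0.862), Nipa1 (0.829) and 1-Sep (0.798), a date-like symbol as the table lists it. Ermn was most like Ank2 (0.810) and Rab27b (0.806), and Ptgds like Bzw2 (0.806), A430033K04Rik (0.724) and Slc18b1 (0.703). Mog was most like Mpp4 (0.698), Opalin (0.695) and Klhl32 (0.687), and Mag like Tgds (0.668), Zfp788 (0.647) and Dock3 (0.637). Of the genes named here, Opalin was the 1 on the oligodendrocyte lists, and both it and Mog were highest in MCAO contralateral replicate 2.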

How the data were processed

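The deposited values are whole-number counts per gene in 18 libraries. Per the submitters' processing notes, FastQC, cutadapt, STAR, featureCounts, DESeq2 and mm10 were used, with no roles, versions or strand setting. The table's name calls the values normalized, yet they are whole and their totals differ, so the deposited counts were used unscaled (0 columns were left without a sample). Positions are from GENCODE M21 (GRCm38).

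All 18 libraries were fitted in edgeR 4.0.16 (R 4.3.3) with 6 group means, TMM scaling and the quasi-likelihood F-test. Of 21638 genes, 17094 reached 10 counts in 3 or more libraries. P-values were adjusted by Benjamini-Hochberg over all genes tested, with calls at an adjusted p under 0.05. CPM is per 1000000 of the TMM-scaled total. The SE is the fold change over the root of F. The members, gene lists and named genes were chosen with earlier results of these data known. Named genes were the members, Cldn5, Pecam1, Hdac2 and Ezh2, from each oligodendrocyte list the called genes (at most 5) and the 3 highest, from each other list the 3 highest, and the 3 genes most like each member. Others (Lims2, Dnajc7, Galnt5, Ttr, Stmn2, Olig1, Olig2, Sox10, Nkx2-2, Opalin, Mobp, Myrf, Pllp, Bcas1) were named after their values were seen. A few genes that this rule selects are not reported here.

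On counts simulated for Ezh2 ECKO against MCAO ipsilateral (16545 genes in the fit), 24.0% of genes raised by a log2 value of 2 and 70.0% of those raised by 5 were called, 22.0% and 66.0% of those lowered, and 0.0414% of unchanged genes. Alternatives were RLE scaling, no filter, a replicate block, only the 2 groups compared, scaling to Cldn5 and Pecam1, DESeq2 1.42.0, other share denominators and each library left out.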

Additional observations from a re-analysis of the deposited data

How the results depend on the processing

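With a replicate block, Gpr17 had an adjusted p of 0.0558 under Ezh2 ECKO against MCAO ipsilateral (edgeR), and 12 genes were called there (250 without it), 0 members and 0 other oligodendrocyte genes (1 and 1), and 9 genes for Hdac2 ECKO against Ezh2 ECKO (21). The labels do not say whether same-numbered libraries share a mouse, so no pairing was assumed. Their deviations from the group means had correlations from −0.36 to 0.41 over all comparisons. Between the sides these were 0.29, 0.39 and 0.03 in MCAO and 0.38, 0.35 and −0.13 in sham. Libraries of unlike number were not compared in this way, so the correlations cannot decide whether a pairing exists. RLE scaling called 4 genes for Hdac2 ECKO against MCAO ipsilateral (2). Without the filter, 2 genes were called for MCAO against sham ipsilateral (0) and 38 for Hdac2 ECKO against Ezh2 ECKO. With only the 2 groups fitted, 74 genes and 2 other oligodendrocyte genes were called for MCAO against sham ipsilateral, 0 genes for Hdac2 ECKO, and 485 genes and 0 other oligodendrocyte genes for Ezh2 ECKO against MCAO ipsilateral.

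DESeq2 called 71 genes, 1 member and 3 other oligodendrocyte genes for MCAO against sham ipsilateral, 6 genes and 1 member for MCAO ipsilateral against contralateral, 26 genes for MCAO against sham contralateral and 6 for the sham sides. It called 238 genes and 1 member for Hdac2 ECKO, 1617 genes, 2 members and 3 others for Ezh2 ECKO against MCAO ipsilateral, and 647 genes, 1 member and 1 other between the deletions. In an alternative added after the data were seen, without the 2 libraries of highest receptor level, 1 gene was called for MCAO against sham contralateral, 1000 for Ezh2 ECKO against MCAO ipsilateral (Gpr17 included, adjusted p 0.0210) and 115 between the deletions, and 0 members had a lower mean share in MCAO than in sham contralateral. That last count was 1 by Cldn5 and Pecam1 together and 0 by Cldn5 alone, Pecam1 alone, 15 endothelial genes or CPM. Between the sham sides, 5 members were lower by Pecam1 alone (3).

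Leaving out 1 library at a time, Ezh2 ECKO against MCAO ipsilateral gave 5 to 298 genes, 0 to 1 members and 0 to 1 other oligodendrocyte genes, with 5 genes without MCAO ipsilateral replicates 1 or 2, 24 without Ezh2 ECKO replicate 2 and 8 without replicate 3. Hdac2 ECKO against MCAO ipsilateral gave 0 to 18 genes, with 18 without MCAO ipsilateral replicate 3, 1 without Hdac2 ECKO replicate 2 and 0 without MCAO ipsilateral replicate 1 or 2 or Hdac2 ECKO replicate 1. The deletions against each other gave 9 to 73 genes and 0 to 1 other oligodendrocyte genes, with 73 and 1 without Ezh2 ECKO replicate 1, 11 without Hdac2 ECKO replicate 1 or 2, and 12 and 9 without Ezh2 ECKO replicates 2 and 3. MCAO against sham contralateral gave 0 to 1 genes, 1 without MCAO contralateral replicate 1, and 0 to 2 members with a lower share, 2 without MCAO contralateral replicate 2.

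Of 587 member fold changes under alternatives, 38 had the opposite sign of the value in the report, all for differences that were not called. The counts of Mog, Ermn and Mag were mostly under 10 and limit what can be seen of them. The cause of these shifts was not tested.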
